A study of Mus musculus with 35 samples.

Results

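The time difference of the lung transcriptome was examined in mice given diphtheria toxin (DT), by comparing lungs taken at ZT16 with lungs taken at ZT4. ZT (zeitgeber time) counts hours from lights on, so that ZT4 lies in the rest phase and ZT16 in the active phase of the mouse. The members were chosen by treatment and batch, and they are 7 of the 35 libraries of the series, 4 at ZT4 and 3 at ZT16. All 7 mice carried MRP8-Cre;iDTR-flox and were males 7 to 9 weeks old. They received DT at 10 ng per g body weight under the skin on 2 consecutive days, and the PBS-perfused left lung lobe was frozen on day 3. In this model an MRP8 promoter drives Cre in neutrophils and other myeloid cells, and Cre switches on the DT receptor. Toxin then kills the cells that bear it. ZT4 mice lived in the normal facility and ZT16 mice in cabinets with an inverted light cycle, so that time of day and housing cannot be told apart. Every DT mouse belonged to the April batch, which held no untreated mice, and the extent of depletion was not tested here. For one comparison the control mice were used, wild-type C57BL/6 males that received a control IgG at 3 µg per g and were not depleted (7 at ZT4 and 7 at ZT16, from the July and September batches). They differ from the DT mice in genotype, in injection and in batch, and these cannot be told apart. Anti-Ly6G mice entered only the fits over all 35 libraries.

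Most cells carry a clock in which CLOCK and BMAL1 (Arntl) activate genes through E-box DNA, and the products of the Per and Cry genes later repress their own transcription. A second loop is formed by the REV-ERB repressors (Nr1d1, Nr1d2) and the ROR activators (such as Rora), while DBP, TEF and HLF pass time to output genes through D-boxes. In the lung, club cells of the airways are known for a strong clock and for the rhythm of neutrophil-attracting chemokines. Their neighbours are ciliated cells, which clear mucus. The alveoli hold surfactant-making type 2 cells, flat type 1 cells, a dense capillary net and fibroblasts.

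Cry1 was the called clock gene for which a promoter window was at hand, and its sequence is shown because it holds the motif through which CLOCK and BMAL1 act. The stretch (RefSeq, GRCm38.p6, chr10:85185065-85185304, minus strand) is written 5′ to 3′ and covers the 240 bases that precede every annotated start, with the E-box in capitals.
Cry1 promoter: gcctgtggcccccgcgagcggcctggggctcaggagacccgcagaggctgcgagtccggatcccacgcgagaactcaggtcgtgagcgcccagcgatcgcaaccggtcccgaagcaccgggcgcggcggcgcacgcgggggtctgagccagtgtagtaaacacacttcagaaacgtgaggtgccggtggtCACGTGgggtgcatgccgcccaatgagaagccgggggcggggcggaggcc
The E-box CACGTG, searched on both strands, began at base 191 of the stretch, 60 bases before the RefSeq start. It occurs in 7.15% of the 32851 promoter windows of 300 bases, and the D-box TTATGTAA, which the Cry1 window lacked, in 0.94%. A match describes the letters only.

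Cry1 and Per2 rose at ZT16 in the DT mice, and 2 of 20 tested clock genes were called higher and 0 lower (8 and 1 at an unadjusted p under 0.05). Among all 15786 genes tested, 4.35% were called higher and 9.52% lower (limma adjusted p under 0.05). At an unadjusted p under 0.05, 4796 of the 15786 genes passed in either direction.

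Cry1 (chromosome 10, 85131700 to 85185064), a repressor of the clock, had normalised expression values of 13.9, 16.5, 18.4 and 16.6 in the ZT4 libraries and of 39.0, 39.6 and 35.8 in the ZT16 libraries. The groups lay far apart, and the log2 change was 1.203 ± 0.11 (SE; adjusted p = 7.33e-05). Per2, another repressor, ran from 30.7, 60.4, 94.3 and 78.1 to 108, 141 and 129. All ZT16 libraries were above all ZT4 libraries, but the ZT4 spread was wide, with library 1 lowest. The change of Per2 was 1.04 ± 0.27 (adjusted p = 0.0234), and the call ended without ZT4 library 2 (adjusted p = 0.0586), ZT16 library 2 (0.0705) or ZT16 library 3 (0.0653), as well as with a robust variance estimate (0.173). Cry1 passed whichever single library was left out, with adjusted p at most 0.000641. Libraries are numbered here in table order within a time, and the numbers pair nothing. The column of ZT16 library 2 has an unexplained suffix in its name, and whether it is 1 mouse is not known.

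**Figure D1:**
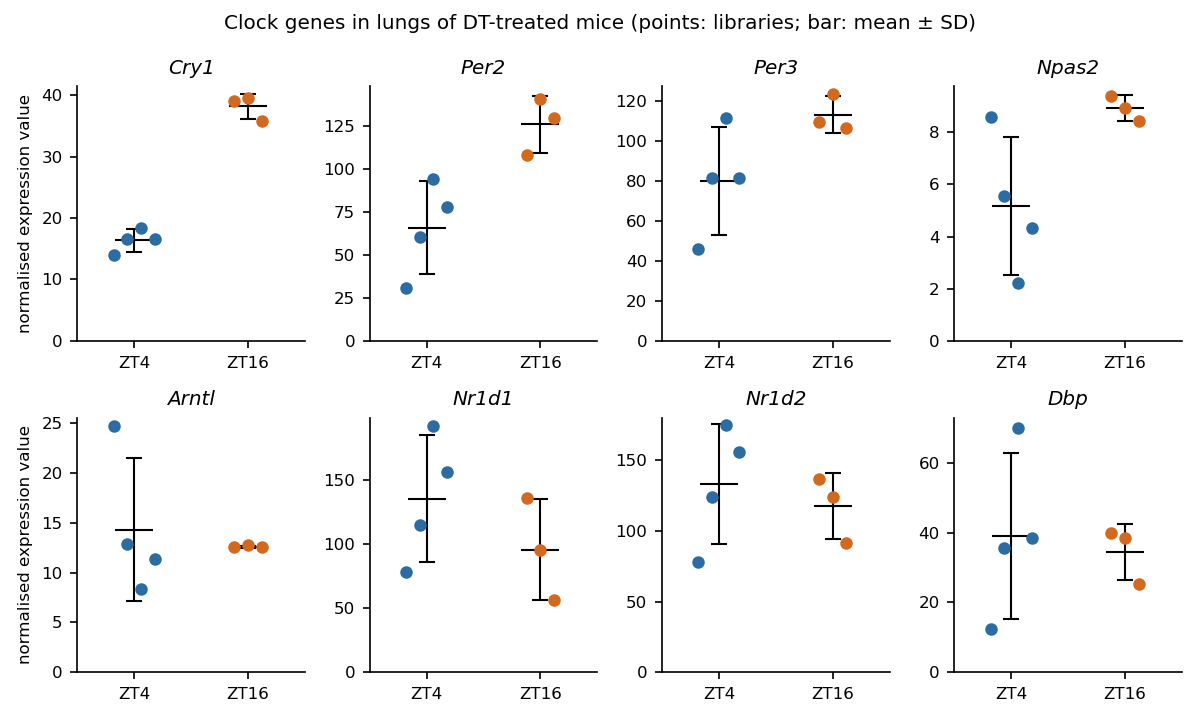
Normalised expression values (vertical axes, each from 0) of 8 clock genes in the 4 ZT4 and 3 ZT16 libraries of DT mice, with each point a library and bars giving mean ± SD. Cry1 and Per2 do not overlap between times, whereas Nr1d1 and Dbp overlap widely.

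The remaining 18 clock genes did not pass. Arntl, the gene for BMAL1, was 24.7 in ZT4 library 1 and 8.39 to 12.9 in the other ZT4 libraries, against 12.5 to 12.7 at ZT16 (change -0.07 ± 0.25, adjusted p = 0.887). Npas2, a relative of Clock, had values of 8.57, 5.57, 2.23 and 4.32 at ZT4 and of 9.40, 8.95 and 8.44 at ZT16 (0.86 ± 0.30, adjusted p = 0.0701). In these genes the ZT4 libraries were dispersed while the ZT16 libraries were close together. ZT4 library 1 had the lowest ZT4 value of Per2, Per3 (45.8, others 81.3 to 111), Dbp, Nr1d1 and Nr1d2 (78.3, others 124 to 175), and the highest of Arntl and Npas2. ZT4 library 3 had the highest Dbp and Nr1d1 and the lowest Arntl and Npas2. Without library 3, 6 clock genes were called higher and 1 lower, where the full set gave 2 and 0.

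Nr1d1 and Dbp, whose transcripts swing most in many tissues, showed no called change. Nr1d1 had values of 78.2, 115, 192 and 156 at ZT4 and of 136, 95.4 and 56.2 at ZT16, with overlapping groups (change -0.51 ± 0.28, adjusted p = 0.246). Dbp stood at 12.4, 35.5, 70.0 and 38.4 at ZT4 and at 39.9, 38.3 and 25.4 at ZT16 (0.03 ± 0.39, adjusted p = 0.965). In control mice Nr1d1 changed by -3.40 over the same interval and Dbp by -2.19. The difference between the time changes, tested as an interaction over all 35 libraries, was 2.89 ± 0.54 for Nr1d1 (adjusted p = 0.00114) and 2.22 ± 0.65 for Dbp (adjusted p = 0.0207). Bhlhe41, which encodes the repressor DEC2, also differed (1.06 ± 0.29, adjusted p = 0.0144), as did Rora (-0.46, adjusted p = 0.0328) and Csnk1e, a kinase of PER proteins (-0.25, adjusted p = 0.0359). Exons of other genes overlap 539 of the 2993 exon bases of Dbp and 1280 of the 6720 of Bhlhe41. No source used here says whether counting used strand.

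For the 2 called genes the control mice gave 1.51 (Cry1) and 1.29 (Per2). The differences from the DT mice were -0.30 ± 0.15 and -0.25 ± 0.40, and neither passed (adjusted p = 0.158 and 0.715). A p above the threshold does not show that the changes were alike. Over all 16786 genes in that fit the difference between time changes was called higher in 4.93% and lower in 8.86%, and 3 and 2 of the 20 clock genes fell on the 2 sides.

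**Figure D2:**
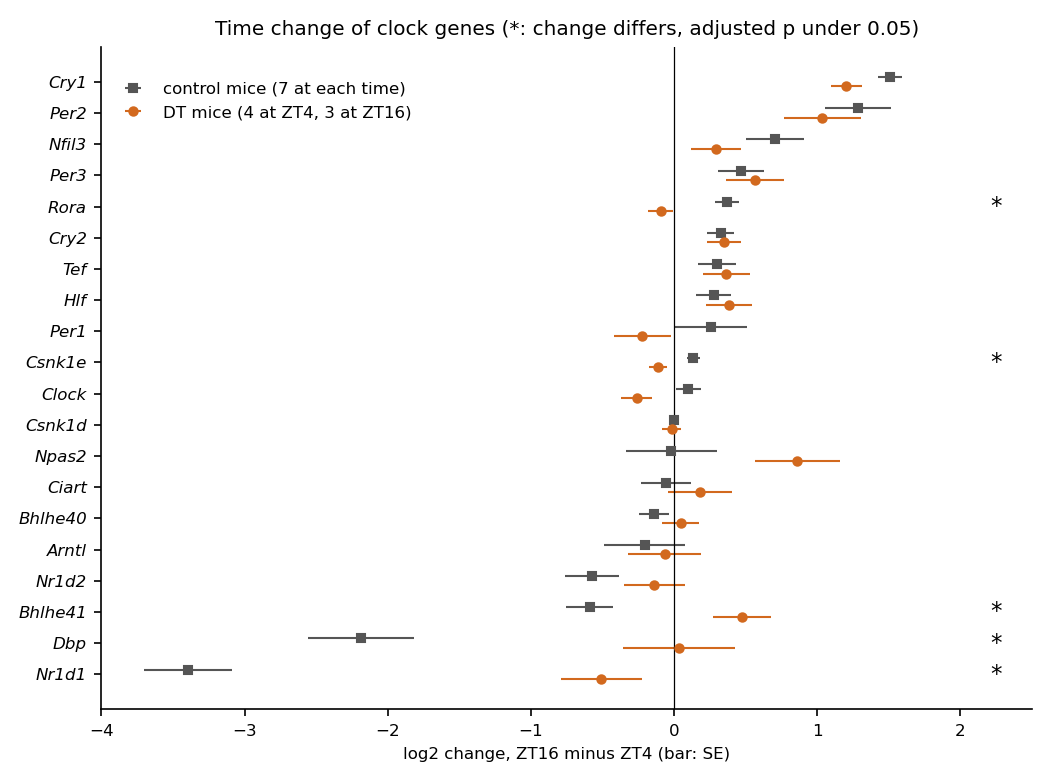
Log2 change from ZT4 to ZT16 (horizontal axis, bars are SE) of 20 clock genes in DT mice (circles) and control mice (squares), ordered by the control value. DT bars come from the fit to the 7 DT libraries and control bars from the fit over all 35, so their SE rest on different estimates of spread. Stars mark the 5 genes whose time changes differ at an adjusted p under 0.05 in the fit over all 35. Nr1d1 and Dbp lie far to the left in control mice (-3.40 and -2.19), against -0.51 and 0.03 in DT mice.

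Of the output genes known to follow the clock in many tissues, 4 of 21 were higher and 1 lower, with 2 higher without ZT4 library 2 or ZT16 library 3 and 3 lower without ZT16 library 1. Cys1, which encodes a ciliary protein, rose from 15 to 24.0 at ZT4 to 33.7 to 42.6 at ZT16 (0.99 ± 0.14, adjusted p = 0.00129). Dtx4 rose by 0.56 ± 0.12 (adjusted p = 0.0102). Noct, a deadenylase-related clock output, fell by 0.49 ± 0.10 (adjusted p = 0.00736), and this call ended once the length trend described below was removed (adjusted p = 0.0749).

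Across all genes 2189 passed, 686 higher and 1503 lower at ZT16, of which 23 and 81 changed more than 2-fold. The groups did not overlap for 2103 of the called genes. This adds no support, because the same values gave the calls, and the share over all genes tested was not worked out. Fewer passed without ZT4 library 1 (354 higher and 930 lower), ZT4 library 2 (294 and 768), ZT16 library 2 (367 and 1029) or ZT16 library 3 (397 and 1036). Calls depended on how libraries were scaled: the share of calls that were higher was 31.3% with the deposited values, 47.0% after quantile normalization (865 higher and 977 lower) and 58.1% after scaling without the 50 highest genes (1265 and 912). The median change of all genes was -0.01, 0.01 and 0.06 under these scalings. Of the 2189 called genes, 1568 were still called after quantile normalization and 1598 after scaling without the 50 highest genes. All 2189 kept their sign, which shifts of this size could hardly turn in genes called for clear changes.

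Of the 12 largest called rises among genes with a usual symbol, separate groups and a level not below the median, 6 were in secreted proteins of airway defence, a grouping made after their values were seen. Ltf, encoding lactoferrin, went from 17.3, 36.2, 47.1 and 35.5 to 151, 77.8 and 96.99 (1.69 ± 0.27, adjusted p = 0.00284). Ltf also belongs to the list of neutrophil granule genes, described below. Retnla, a resistin-like cytokine, went from 29.4, 44.4, 41.6 and 29.6 to 199.8, 66.7 and 73.9 (1.47 ± 0.29, adjusted p = 0.00685). In both, ZT16 library 1 was the highest, and without it the change of Retnla was 0.97. Bpifa1, an antimicrobial surface protein of airway epithelium, went from 197, 370, 437 and 321 to 933, 618 and 817 (1.29 ± 0.21, adjusted p = 0.00305). Scgb3a1 (1.01), the lectin Reg3g (0.98) and Bpifb1 (0.84) followed. A robust variance estimate ended the calls of these 6 genes, with adjusted p from 0.0559 for Bpifa1 to 0.154 for Reg3g, and that of Reg3g also ended without ZT16 library 3 (0.0684) and in the fit over all 35 libraries (0.0626). The other named rises were Mycl (0.89), Gdpd2 (0.84) and the interferon-induced Ifit3 (0.84), each with non-overlapping groups. Interferon-stimulated genes as a list were higher in 2 of 28 and lower in 2, Ifit2 and Ddx58. Over all genes the shares were 4.35% and 9.52%. Exons of another gene overlap 17.3% of those of Gdpd2.

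As a list, markers of club and other airway secretory cells stood higher at ZT16 in 10 of 17 tested members and lower in 0, with a median change of 0.55 against -0.01 over all genes (at an unadjusted p under 0.05, 14 higher and 0 lower). With the robust estimate 5 members were called. The list holds Ltf, Retnla, Reg3g and the Bpif and Scgb genes just given. Krt15, a basal cell keratin, had low values of 0.48 to 1.48 at ZT4 and of 2.05 to 7.89 at ZT16 (1.89 ± 0.37, adjusted p = 0.0063). Scgb1a1, the defining secretoglobin of club cells and the highest gene in every DT library, went from 21013, 23592, 27739 and 26639 to 36740, 39576 and 32037. Its groups did not overlap, yet the change of 0.55 ± 0.30 did not pass (adjusted p = 0.239). The summed level of the list was 26490 to 34730 at ZT4 and 40240 to 48890 at ZT16. Most of this sum came from Scgb1a1 and Cyp2f2 (0.29, adjusted p = 0.194), neither of them called, so it does not describe the other members. In control mice the median change of the list was -0.10, and 10 members differed between DT and control mice.

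Markers of ciliated cells were higher in 17 of 29 and lower in 0 (median 0.36; at an unadjusted p under 0.05, 22 higher and 0 lower). Foxj1, the master regulator of motile cilia, rose by 0.47 ± 0.11 (adjusted p = 0.0157), from 87.0, 92.7, 111 and 119 to 128, 161 and 136. The cilia genes Ccdc153 (0.52), Rsph1 (0.49) and Ccdc40 (0.42) rose with groups that did not overlap. The called members were short genes on the whole, with a median transcript of 1536 bases against 6643.5 for the 12 others. The dynein heavy chain genes Dnah5 (0.09), Dnah9 (0.07) and Dnah11 (0.09) and the long ciliary gene Hydin (-0.04), of 13798 to 15783 bases, did not pass. After the length trend was removed 10 of 29 were called. The count was 9 without ZT4 library 1 and 7 without ZT4 library 2 or ZT16 library 2. In whole tissue, more cells of a type and more RNA per cell cannot be told apart.

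**Figure D3:**
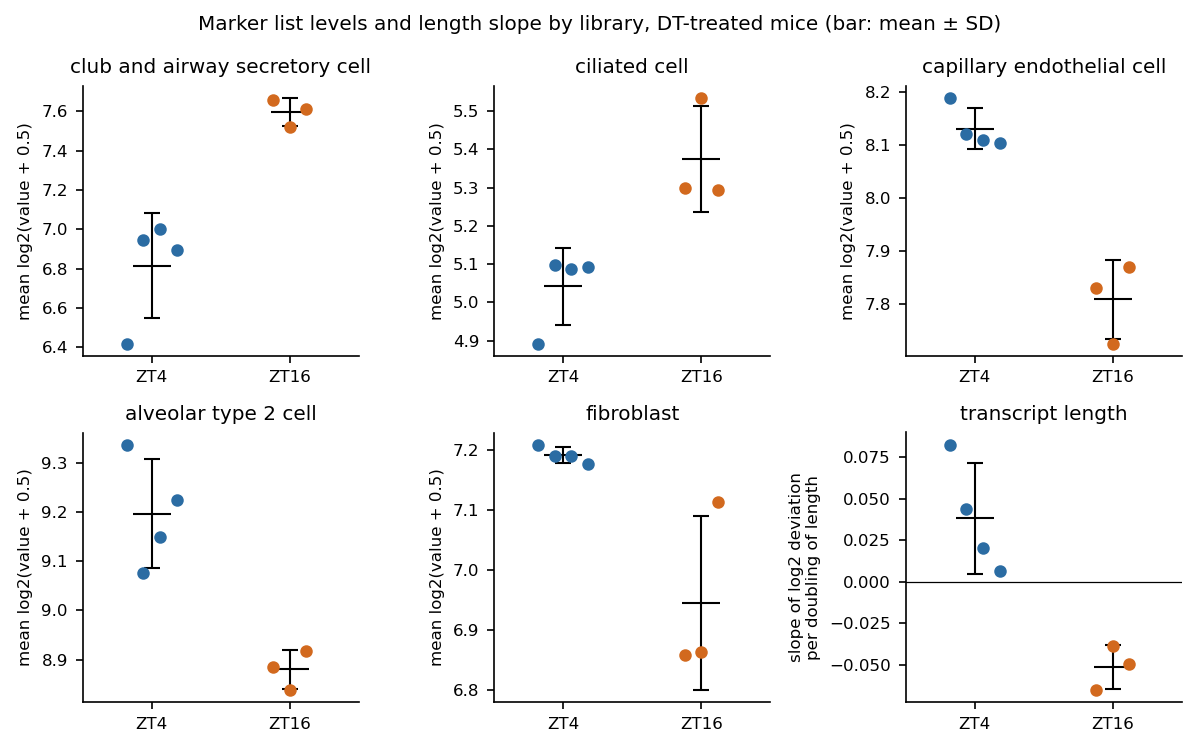
Mean log2(value + 0.5) of 5 marker lists and the slope of each library's log2 deviation on transcript length (vertical axes), by time, with each point a library and bars giving mean ± SD. All 6 measures are separated by time without overlap, and ZT4 library 1 lies at the end away from ZT16 in each.

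Library composition and transcript length moved with time of day in these mice. The 10 highest genes took 6.87% to 7.98% of the summed values at ZT4 and 9.03% to 10.1% at ZT16, and mitochondrial transcripts took 2.42% to 3.07% and 3.58% to 4.54%. Changes followed transcript length at -0.09 log2 units per doubling. The decile of genes with the shortest transcripts had a median change of 0.16, with 10.7% called higher and 2.48% lower. For the longest decile the median was -0.17, with 1.33% called higher and 25.9% lower. Pearson's r across the 15741 genes with a length was -0.27, where genes are not independent replicates. Slopes by library were 0.08, 0.04, 0.02 and 0.01 at ZT4 and -0.07, -0.04 and -0.05 at ZT16. With a smooth length trend removed from each library 1471 genes were called, 597 higher and 874 lower, and 1219 of the 2189 first called (55.9%) remained. Cry1 and Per2 were among them (adjusted p = 0.00015 and 0.0281).

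**Figure D4:**
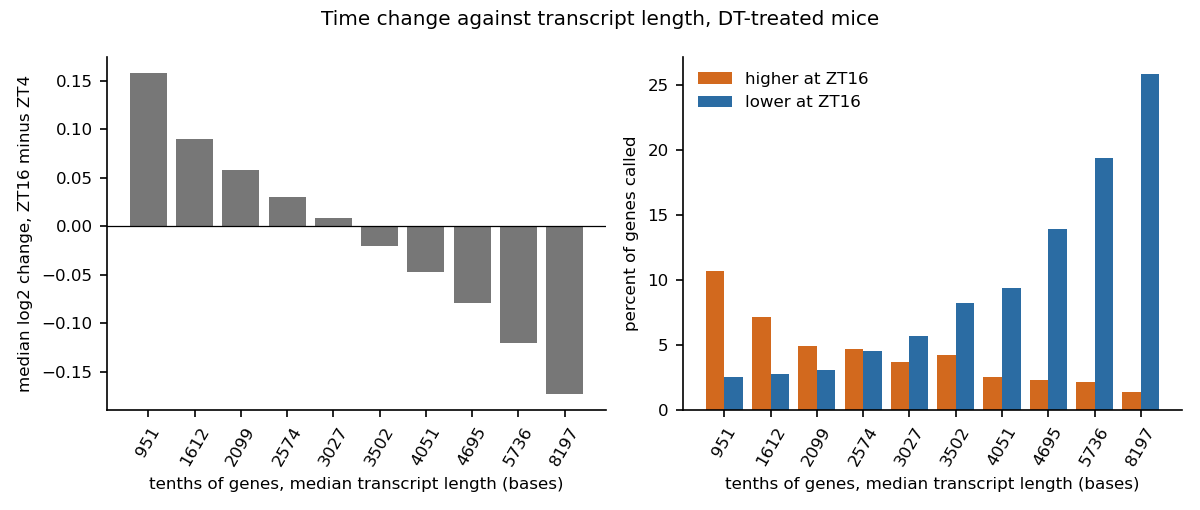
Genes tested in DT mice in deciles by transcript length, labelled by median length in bases, with the median log2 change (left) and the percent called higher or lower at ZT16 (right). The median falls from 0.16 to -0.17, and the percent called lower rises from 2.48 to 25.9.

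When an airway score, the mean log2 value of club and ciliated markers, was added as a covariate, 0 genes were called higher and 2 lower, and 728 had an unadjusted p under 0.05. This score did not overlap between the times, so that it and the time of day could hardly be fitted apart. With a lymphocyte score as covariate, 410 genes were higher and 1042 lower.

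Genes of the capillary endothelium stood lower at ZT16 in 15 of 28 and higher in 0 (median -0.36; at an unadjusted p under 0.05, 18 lower and 0 higher). Cdh5, the junction protein VE-cadherin, fell from 1048, 906, 883 and 826 to 482, 463 and 541, groups that lay far apart (-0.88 ± 0.10, adjusted p = 0.000327). Aplnr, the apelin receptor, fell from 76.5 to 96.0 at ZT4 to 26.4 to 44.1 at ZT16 (-1.22 ± 0.14, adjusted p = 0.000471). Emcn (-0.74), the VEGF receptor gene Kdr (-0.67), Plvap (-0.62) and Pecam1 (-0.46) fell too. Other markers of these cells did not pass, among them Cldn5 (-0.15), Sox18 (0.02), Ramp2 (0.22) and Car4 (0.11). The list's sum was 10840 to 12390 at ZT4 and 8409 to 9596 at ZT16, and 13 members were called lower after the length trend was removed.

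Ligands and receptors of vessel growth were lower in 11 of 21 and higher in 0 (median -0.35), a list that shares Kdr, Tek, Apln and Aplnr with the former. Hgf, a growth factor made by mesenchymal cells, went from 37.2, 25.6, 25.3 and 15.7 to 7.47, 7.61 and 8.63 (-1.59 ± 0.21, adjusted p = 0.000924). Angpt2 fell by 0.80, Nrp1 by 0.63 and Notch1 by 0.56. Vegfa itself did not pass (-0.15). In control mice the list's median change was 0.07, and 11 of its members had a lower time change in DT than in control mice, Hgf with a difference of -1.67 (adjusted p = 8.75e-05) and Nrp1 with -0.74 (adjusted p = 0.00046).

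Of the type 2 cell markers 11 of 21 fell and 0 rose (median -0.39). The 4 surfactant protein genes among them did not pass, with changes of 0.02 (Sftpa1), 0.00 (Sftpb), 0.05 (Sftpc) and 0.17 (Sftpd). Cxcl15, the lung chemokine lungkine, fell from 1184, 1008, 979 and 1150 to 623, 618 and 550 (-0.85 ± 0.09, adjusted p = 0.000376), where control mice gave -1.31. Abca3, the lipid transporter of lamellar bodies, fell by 0.51, Lamp3 by 0.56, the phosphate transporter gene Slc34a2 by 0.50 and Il33 by 0.65. Type 1 cell markers were lower in 4 of 21 and higher in 0, including Emp2 (-0.54) and Clic5 (-0.45). Summed levels of the type 2 list overlapped, 29040 to 34560 at ZT4 and 28180 to 31250 at ZT16, while its mean log2 levels did not (9.08 to 9.34 and 8.84 to 8.92). Genes of fatty acid synthesis fell in 5 of 18, with Fasn, also in the type 2 list, at -0.54 and Elovl1 at -0.63. After the length trend was removed 2 of 18 were called. The count was 3 of 18 without ZT4 library 1, ZT4 library 2 or ZT16 library 3, and under either other scaling. Of 18 cholesterol synthesis genes limma called 0, and 2 had an unadjusted p under 0.05, a smaller share than the 4796 of 15786 over all genes.

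Fibroblast markers were lower in 10 of 22 and higher in 0 (median -0.31), led by Pdgfrb (-0.65 ± 0.08, adjusted p = 0.000471), Limch1 (-0.62) and Pdgfra (-0.72). At an unadjusted p under 0.05, 11 fibroblast markers were lower and 3 higher, and scaling without the 50 highest genes called 8 lower and 2 higher. The matrix fibroblast genes Dcn (0.00) and Lum (0.09) did not pass. Of the collagens and elastic fibre genes 16 of 36 were lower and 0 higher. Col4a1, a basement membrane chain, fell from 1372, 1135, 1022 and 1123 to 747, 582 and 695 (-0.78 ± 0.11, adjusted p = 0.00153), with Col4a3 (-0.73), Col4a2 (-0.57) and the cross-linking enzyme genes Lox (-0.96) and Loxl1 (-0.56). The fibrillar collagens Col1a1 (-0.20), Col1a2 (-0.06) and Col3a1 (-0.22) did not pass. This list has long transcripts (median 5367 bases), and 8 of 36 were called after the length trend was removed, likewise 8 without ZT4 library 2, 9 without ZT4 library 4 and 10 without ZT4 library 1 or under either other scaling.

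Within the same limits the largest called falls were in genes of several roles. Ntrk2, the receptor for BDNF, went from 45.0, 43.1, 55.4 and 57.2 to 13.7, 14.98 and 18.4 (-1.65 ± 0.12, adjusted p = 1.55e-05). Glp1r, the receptor for glucagon-like peptide 1, went from 75.6, 44.7, 37.1 and 27.3 to 10.7, 15.4 and 15.7 (-1.61 ± 0.25, adjusted p = 0.00238). Slfn5, an interferon-inducible gene, went from 176, 136, 143 and 129 to 59.6, 61.1 and 59.2 (-1.27 ± 0.09, adjusted p = 1.55e-05). None of these overlapped between times. Plcb1 (-1.23), the collagen-binding integrin gene Itga1 (-1.19), the copper transporter gene Atp7a (-1.05), Acoxl (-1.04), Arap2 (-0.999) and Scube2 (-0.98) followed. Ciita, the master regulator of MHC class II, fell by 1.07 and Nr4a1 by 1.22, and both calls ended with a robust variance estimate (adjusted p = 0.0814 and 0.0729), as did that of Scube2 (0.0748).

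Immediate early genes, which respond to stimuli within minutes, were lower in 6 of 22 and higher in 0 (at an unadjusted p under 0.05, 6 lower and 1 higher). Without ZT16 library 1 the count was 11 lower, and without ZT16 library 3 it was 5 lower and 2 higher. Nr4a3 went from 15.5, 17.4, 21.8 and 18.4 to 5.17, 5.66 and 4.84 (-1.71 ± 0.14, adjusted p = 3.03e-05), and Atf3 (-0.97), Klf4 (-0.74) and Jun (-0.49) fell as well. Fos (-0.05), Egr1 (0.33) and Ier2 (0.04) did not pass. Of the 21 heat shock chaperone genes limma called 0, and 5 had an unadjusted p under 0.05, all lower at ZT16. This is a smaller share than the 4796 of 15786 over all genes. Leaving out a library gave 4 lower (ZT16 library 2), 2 lower (ZT4 library 1) or 1 higher (ZT16 library 1), array weights gave 4 lower, and the list median of 0.05 ran from -0.24 to 0.19. Values of the closely similar Hspa1a and Hspa1b spread widely within a time, Hspa1a from 21.2 to 88.3 at ZT4 and from 10.2 to 39.8 at ZT16.

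Monocyte markers were lower in 6 of 12 and higher in 0 (median -0.42). Only 1 was called without ZT4 library 1, ZT4 library 2 or ZT16 library 2, 2 without ZT4 library 3 and 3 without ZT16 library 3. Those called in the full set included Ace, Cd300e, Ly6c2 and Nr4a1, which is also in the immediate early list. Which cells carried these falls was not tested. T cell (0 higher and 1 lower of 25), B cell (1 and 1 of 24) and natural killer cell genes (0 and 1 of 19) showed few calls, with medians of -0.23, -0.31 and -0.39. Without ZT16 library 1 these medians were -0.09, 0.10 and -0.16, so that the sign of the B cell median turned, and without ZT4 library 2 the B cell median was -0.09. Without ZT16 library 3, 3 T cell genes were called lower, and without ZT4 library 4, 2 B cell genes. For natural killer cell genes 2 were called lower without ZT4 library 1. Vpreb3, the B cell list member called higher, rose from 12.7 to 16.6 to 23.4 to 30.1 (0.89 ± 0.13, adjusted p = 0.00141). The defining B cell gene Ms4a1 was at -0.77 and did not pass (adjusted p = 0.0971). MHC class II genes were lower in 2 of 10 (Ciita and Cd74), all 10 with a change below 0. Without ZT16 library 3, 5 were called lower, and the list median of -0.31 ran from -0.48 to -0.13 when 1 library was left out. The call of Cd74 ended without ZT4 library 1 (0.0657), ZT4 library 2 (0.0825), ZT16 library 1 (0.0787) or ZT16 library 2 (0.0687), and after quantile normalization (0.121).

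Mature neutrophil markers gave 16 of 22 genes above the filter, 1 higher and 1 lower. S100a8, the gene for MRP8, had values of 7.12, 6.10, 6.79 and 7.00 at ZT4 and of 14.2, 8.49 and 3.43 at ZT16. The ZT16 libraries thus lay on both sides of the ZT4 libraries (0.15 ± 0.32, adjusted p = 0.786). S100a9, its partner, spread alike, 5.60 to 10.3 and 3.61 to 16.5. Cxcr2, the receptor for neutrophil chemokines, was higher (0.46, adjusted p = 0.0431), and leaving out any one library but ZT4 library 3 ended that call (adjusted p 0.0721 to 0.114). Il1b was lower (-1.17, adjusted p = 0.0196), and its call ended without ZT4 library 1 (0.0543), ZT4 library 2 (0.0589) or ZT16 library 3 (0.0541), and in the fit over all 35 libraries (0.142). The defining gene Ly6g was below the filter. Neutrophil granule genes gave 3 of 9 above the filter, 1 higher (Ltf) and 0 lower. Their mean log2 level was 4.30 to 4.73 at ZT4 and 4.84 to 5.73 at ZT16, highest in ZT16 library 1. Of these 3 genes, Ltf is also in the airway secretory list and Chil3 in the alveolar macrophage list. Which cells carried the change of Ltf or the level of the list was not tested. Of the chemokines, Cxcl5 was near the floor of the data (0.20 to 0.74, then 1.37 to 2.02; change 1.35, adjusted p = 0.00807), and Cxcl12, a stromal chemokine, fell by 0.70.

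Xenobiotic and antioxidant genes were higher in 10 of 30 and lower in 1 (median 0.20). Gsta3, a glutathione transferase, went from 209, 189, 206 and 188 to 298, 300.4 and 291 (0.58 ± 0.07, adjusted p = 0.000471), with tight and separate groups, and in control mice it changed by 0.97. Aldh3a1 (0.74) and Gsta4 (0.60) rose as well, and Cyp2e1 fell by 0.90. The Nrf2 targets Hmox1 (0.04), Gclc (0.05) and Txnrd1 (0.02) did not pass. Airway secretory markers, given above, moved the same way, and their part in this result was not tested. Without ZT4 library 2 the list gave 5 higher and without ZT16 library 3 it gave 6.

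Oxidative phosphorylation genes, short transcripts with a median of 1232 bases, were higher in 8 of 39 and lower in 0, but 3 of 39 after the length trend was removed and 16 of 39 after scaling without the 50 highest genes. Without ZT4 library 2 or ZT16 library 3 the count was 1, without ZT4 library 1 it was 3, and without ZT16 library 1 or 2 it was 4. Cytosolic ribosomal protein genes were higher in 3 of 43, 16 after quantile normalization, 10 after scaling without the 50 highest genes and 1 after the length trend was removed. Leaving out a library gave 0 (ZT4 library 2 or ZT16 library 3), 1 (ZT4 library 1 or ZT16 library 1) or 5 (ZT4 library 4). Cell cycle genes had a median of 0.43 with 3 of 30 called, all low in level, and 1 after quantile normalization. Their mean log2 level was 3.41, 2.59 and 2.82 in ZT16 libraries 1, 2 and 3, against 2.47 to 2.57 at ZT4. The median ran from 0.17 to 0.65 when 1 library was left out. Kif23 went from 4.24 to 4.95 to 6.88 to 10.9, and ZT16 library 1 was the highest; without ZT16 library 2 the list gave 7 and without ZT4 library 1, ZT4 library 2, ZT4 library 4 or ZT16 library 1 it gave 1. Of 23 fatty acid oxidation genes limma called 0, and 5 had an unadjusted p under 0.05, 2 higher and 3 lower. That share, too, is smaller than the 4796 of 15786 over all genes. The fit over all 35 libraries called 2 higher and 2 lower, scaling without the 50 highest genes 2 higher, array weights 2 lower, quantile normalization 1 higher, and 3 were lower without ZT16 library 1.

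**Figure D5:**
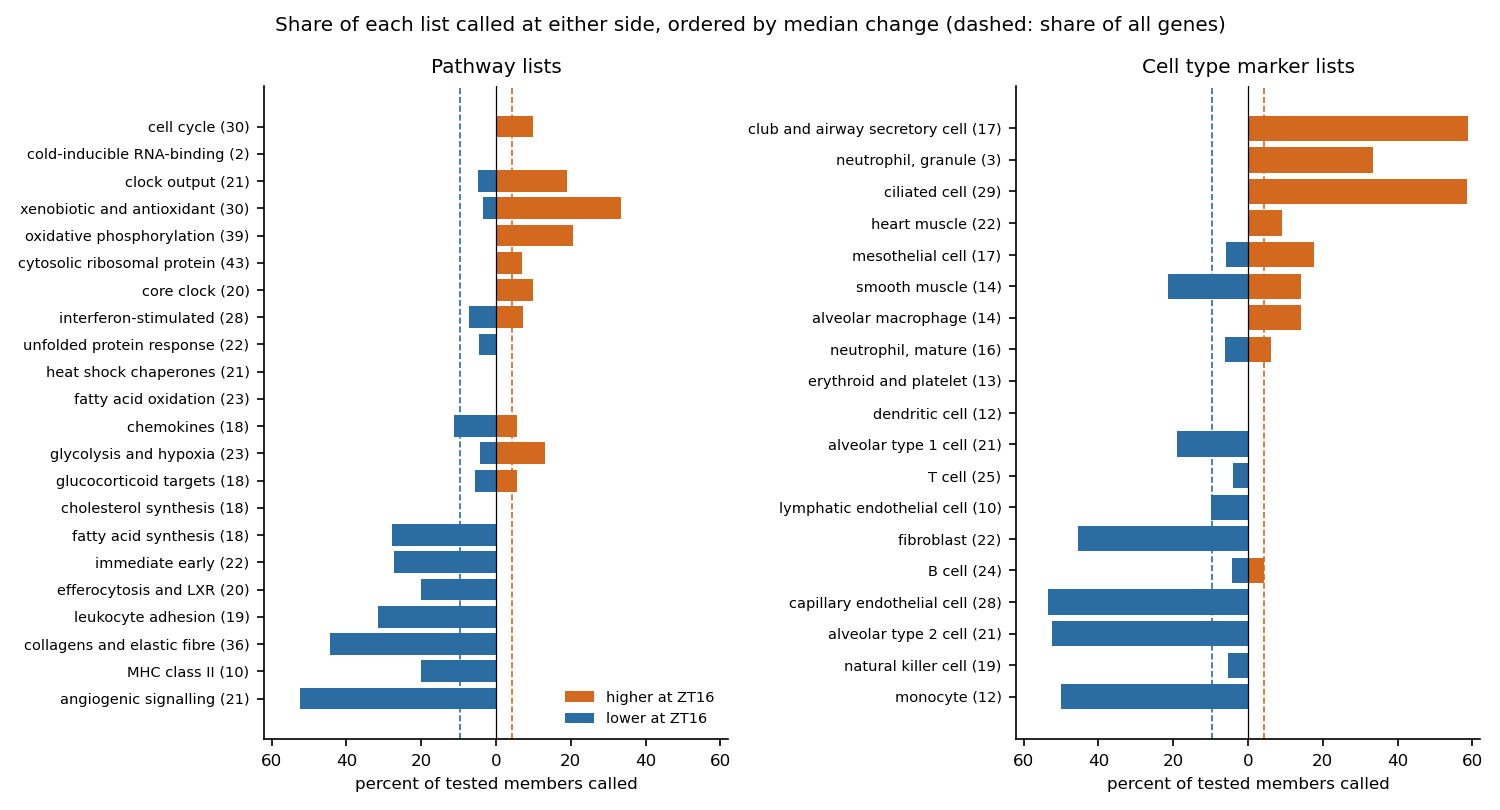
Percent of the tested members (number in brackets) of 22 pathway and 19 marker lists called higher (right of 0) or lower (left of 0) at ZT16 in DT mice, ordered by median change, with dashed lines at the 4.35% and 9.52% of all genes. Airway lists stand out to the right and angiogenic, capillary, type 2 cell, monocyte, fibroblast and collagen lists to the left.

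Genes whose time change differed from that of control mice numbered 2314 of 16786, 827 with a higher and 1487 with a lower value in DT mice, and after quantile normalization 1092 and 984. The count was 1164 without ZT4 library 1, 1463 without ZT16 library 1 and 1487 without ZT16 library 2. Slfn5, for example, changed by 0.10 in control mice and the difference was -1.37 (adjusted p = 0.00015), and for Itga1 the difference was -1.32 (adjusted p = 3.56e-05). In the other direction, Hes1, a Notch target, rose by 0.62 in DT mice and changed by -0.34 in control mice (difference 0.96, adjusted p = 0.00194). The ciliary gene Cfap126 gave 0.65 and -0.23 (difference 0.88, adjusted p = 0.00165).

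The 2 features with the largest falls of all genes tested were chosen after their values were seen. RP23-325D10.3 (Gm49388 in the annotation, GRCm38 chromosome 7, 127785608 to 127803802) went from 16.1, 23.6, 24.4 and 13.5 to 0.29, 0.28 and 0.40 (-4.56 ± 0.21, adjusted p = 1.85e-07). Gm11175, an antisense gene (chromosome 8, 70699162 to 70700080), went from 38.7, 27.2, 29.4 and 13.4 to 0.62, 0.58 and 0.79 (-4.48 ± 0.27, adjusted p = 2.26e-06). Each was present in all ZT4 libraries and near the floor in all ZT16 libraries. All exon bases of the first lie in exons of Setd1a, Hsd3b7 and a further locus, and all those of the second in Jund, so that reads could be assigned to either gene and both values are uncertain. In control mice these features changed by -0.16 and 0.31.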

How the data were processed

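RNA from the left lobe, perfused before freezing, went through a kit meant for single cells before library preparation, per the labels' protocols. The submitters' processing notes name the build GRCm38 and, in no stated role or order, kallisto 0.43.1, RSEM 1.2.20, cutadapt and CASAVA 1.8.2. The table the authors deposited holds normalised expression values per gene, handled as signal. Values are above 0 and not whole, their sums lie between 962649 and 1033550 per library, and no source used here says how they were normalised. Depth is therefore unknown and no counting interval is given. Table columns name a time, treatment and batch but no single sample of the labels. Each library was taken as 1 mouse, although the column of ZT16 library 2 has an extra suffix in its name that no source used here explains, and if libraries shared a mouse p-values would measure technical spread. No 2 libraries were identical.

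Genes at or above 1 in at least 3 of the 7 DT libraries were kept (15786 of 22211). limma 3.58.1 in R 4.3.3, with the trend option and two-sided tests, was run on log2(value + 0.5) of these 7 libraries alone (5 residual degrees of freedom), with Benjamini-Hochberg adjustment over all genes kept and a threshold of 0.05. Changes are on this scale, which understates those of low genes. The time change of DT minus control mice was tested as an interaction over all 35 libraries with a September against July term (16786 genes, 28 residual degrees of freedom); whether the authors aligned the batches is not known. Transcript length is that of the longest transcript in GENCODE vM21, and the length trend was a loess fit (span 0.4) to the deviations of each library from the gene means, subtracted from its log2 values.

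Named genes are the 12 largest rises and 12 largest falls among called genes with groups that do not overlap, a conventional symbol and a mean log2 level not under the median, all clock genes, 6 neutrophil genes, the members with the lowest p in each list (at most 4), and up to 6 genes per direction for the difference from control. Other list members are given as examples, chosen after their values were seen. The comparison and the 41 lists (841 symbols, 836 in the table) were chosen with earlier results of these data known, and lists are described by counts and medians. Some genes stand in several lists, for example Fasn, Cxcl15, Cd74 and Nr4a1, so the counts of such lists are not separate results. Some genes are not reported here and were left out of the lists. The limma script was tested on simulated data. Alternatives are given in the closing section; 2 fits with a replicate block were added after seeing the data.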

Additional observations from a re-analysis of the deposited data

Results flagged for a closer look

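In the ZT4 group 8 of the 195 named genes had 1 library apart from the other 3 by more than Dixon's critical value at the 95% level, where chance flags about 1 in 20 groups. For 7 of them this was ZT4 library 1: Scgb3a1 (99.6), Itga1 (228), Marco (10.1), Zbtb46 (60.8), Plvap (478), Actg2 (15.2) and Cfap126 (17.2). The other was Hmgcs1 in library 4 (132).

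The time change of 80 of the 195 named genes differed between DT and control mice by the interaction test. Values are given for 19 of them, the clock genes, the genes chosen for this difference, and Hgf and Nrp1, which the report describes. The change was higher in DT mice for Nr1d1 (2.89), Dbp (2.22), Ltf (1.88), Retnla (1.70), Actg2 (1.08), Scgb3a1 (1.06), Bhlhe41 (1.06), Hes1 (0.96) and Cfap126 (0.88). It was lower for Glp1r (-1.76), Ntrk2 (-1.50), Slfn5 (-1.37), Itga1 (-1.32), Hgf (-1.67), Nrp1 (-0.74), Ston1 (-1.22), Abcb1a (-1.17), Rora (-0.46) and Csnk1e (-0.25). DT, genotype and batch cannot be told apart in these differences.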

How the results depend on the processing

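Depth and normalisation of the values are unknown, so counting error could not be set beside any change. The 686 genes higher and 1503 lower at ZT16 became 865 and 977 with quantile normalization, 1265 and 912 with scaling without the 50 highest genes, 597 and 874 with the length trend removed, 410 and 1042 with the lymphocyte score and 0 and 2 with the airway score as covariate. Leaving out 1 library at a time gave 294 to 620 higher and 768 to 1400 lower, with the fewest without ZT4 library 2. Pseudocounts, filters, median scaling, array weights, the robust estimate and the fit over all libraries left both counts within 1.5 times. Of the called genes tested again, 1056 of 2183 were still called without ZT4 library 2. With the length trend removed and a replicate block, 904 of 2182 were. Signs held more widely, as these genes had been called for clear changes in the same data. Every called gene that was tested kept its sign in each of the 22 other fits, whereas 1845 of 2189 did with the airway score. Under that covariate the sign changed for Per2 (-0.89), Scgb3a1 (-0.23), Reg3g (-0.42), Bpifb1 (-0.11), Ndufa4 (-0.0103), Rplp2 (-0.0432), Rpl38 (-0.0034), Rsph1 (-0.10), Tpm2 (-0.39), Sln (-0.0066), Fasn (0.0458), Lpcat3 (0.19), Flt4 (0.0113) and Pdgfra (0.0766), with adjusted p of 0.987 or more, and the cause was not tested. The count of genes whose time change differed from control was 1164 to 2641 when 1 library was left out, with the fewest without ZT4 library 1.

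The labels' replicate numbers could not be matched to columns. In fits chosen after seeing the data, with the number in the column name as a replicate block, 515 genes were higher and 1243 lower, and with the block and the length trend removed 408 and 678. ZT4 library 3 was alone with its number, so it did not enter the time contrast of these fits. The deviations of same-numbered libraries from their group means correlated at -0.01, 0.02 and -0.05 across genes, and the numbers were not taken to pair the samples.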
